A study of Mus musculus with 12 samples.

Results

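Mice lacking NR3B and wild-type mice were compared for how far their central nervous system tissue changed between birth (postnatal day 0, P0) and postnatal day 5 (P5). For each probe set the knockout's P5 minus P0 difference was set against the wild type's, and the difference between them is called the genotype by age term. A positive term means that P5 minus P0 was larger, or less negative, in the knockout. All 12 of the 12 samples entered, placed in groups by their titles, with 3 samples in each of 4 groups: P0 wild type, P0 NR3B knockout, P5 wild type and P5 NR3B knockout. NR3B is read here as the protein encoded by Grin3b, a glycine-binding NMDA receptor subunit best known from motor neurons. The source label names brain, hindbrain and spinal cord together, while the description says brain. The strain, the deleted part of the gene, the shares of brain and cord, and whether each sample came from a separate animal are not given in the sources used here, so p-values measure only the spread between these samples.

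The first postnatal days of the mouse are a time when oligodendrocytes begin to wrap axons in myelin, astrocytes mature, granule cell precursors divide in the outer layer of the cerebellum, and neurons exchange fetal receptor and cytoskeletal proteins for later ones. A slower pace would appear as a smaller P5 minus P0 difference for the genes that mark these steps. In samples of whole tissue, a change in the number of cells of a type and a change in RNA per cell cannot be told apart.

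Values are log2(signal + 16) after quantile normalization, and all levels and differences below are on this scale, so changes of dim genes come out too small. The targeted gene, Grin3b, lay at 8.49, 7.76 and 8.32 in samples 1 to 3 of wild type at P0, 5.59, 5.69 and 6.96 in knockout at P0, 8.14, 7.46 and 7.42 in wild type at P5, and 5.95, 5.93 and 5.91 in knockout at P5. No knockout sample reached the lowest wild-type sample, although this dim probe set was under the filter used for genes and its place relative to the deleted part is unknown. Its genotype by age term was 0.36 (SE 0.70, 95% interval -1.13 to 1.85). The arrays' median signals lay between 605 and 734, and precision is limited by having only 3 arrays in a group. Samples of a group differed more at P0 than at P5: the median gene's within-group SD was 0.269 in wild type at P0 and 0.21 in knockout at P0, against 0.119 and 0.133 at P5. P0 wild-type sample 1 had an 18S ribosomal RNA signal of 7728, with 48911 to 110512 in the others. Xist and Y-linked Eif2s3y, chosen for this check after their values were seen, had a female pattern in 2 P0 wild-type, 2 P0 knockout, 0 P5 wild-type and 1 P5 knockout samples, so sex was not balanced over the groups. Hox genes, which mark hindbrain and cord, were bright (22 of 25 with a probe set passed the filter), while 9 of 15 forebrain genes with a probe set passed it, Neurod6 and Bcl11b among them, and Emx1, Tbr1, Dlx1, Dlx2, Dlx5 and Fezf2 did not. Of 14 motor neuron markers with a probe set, 9 passed the filter, among them Isl1, Slc18a3 and Prph, and Chat, Mnx1, Lhx4, Phox2a and Tbx20 did not.

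No probe set had a genotype by age term that passed the test. Of 45037 probe sets, 0 (0.0%) had a limma adjusted p under 0.05, the smallest adjusted p was 0.838, and 2243 (4.98%) had an unadjusted p under 0.05. The count stayed at 0 when each of the 12 samples was left out in turn. It was 2 with a prior that ignores intensity, 1 without P0 wild-type samples 1 and 2, and, in settings chosen after seeing the data, 1527 of 12600 genes with 1 probe set per gene and a weight for each array, and 210 of 12610 with 1 probe set per gene and no P0 wild-type sample 2. The weights set P0 wild-type samples 1 and 2 low, at 0.36 and 0.189, and P0 knockout sample 1 as low, at 0.375, while P0 wild-type sample 3 was high, at 2.44. Both added settings thus give P0 wild-type sample 2 little or no weight. With equal weights, the 95% interval of the term reached 0.56 to either side for the median gene. For 2118 of the 2732 genes that changed with age on average over the genotypes (77.5%), the interval excluded a term of 2-fold in either direction. For the remaining age-changed genes a term of 2-fold was not excluded at this precision. Such a term is a difference between the age changes and not a ratio of them. The mean age change over the 2732 genes was 0.75 in wild type, so a slower pace could give a term well under 2-fold. Terms of that size were not excluded by this count.

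The age change itself was large in both genotypes and ran the same way. A gene is represented here by its brightest probe set, and 12600 genes passed the filter. From P0 to P5 in wild type, 851 genes rose (6.75%) and 606 fell (4.81%), and in the knockout 497 rose (3.94%) and 338 fell (2.68%). Of these, 606 genes passed in both genotypes, which is 41.6% of the wild-type genes and 72.6% of the knockout genes, and all 606 moved in the same direction. Among the 851 genes that passed in wild type alone, 835 had the same sign in the knockout, and among the 229 that passed in the knockout alone, 225 had the same sign in wild type. The age changes of the genotypes share no sample. Across the 12600 genes, which are not independent, their Pearson r was 0.748. The average of the 2 age changes called more, 1374 genes rising (10.9%) and 1358 falling (10.8%). Counts of probe sets depended on single samples: wild type gave 2615, against 6991 without P0 wild-type sample 2, 1316 and 1422 without samples 1 and 3, and 1093 to 1125 without a P5 wild-type sample. The knockout gave 1577, against 696 to 855 without a P5 knockout sample. The average gave 5278, against 8298 without P0 wild-type sample 2.

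**Figure D1:**
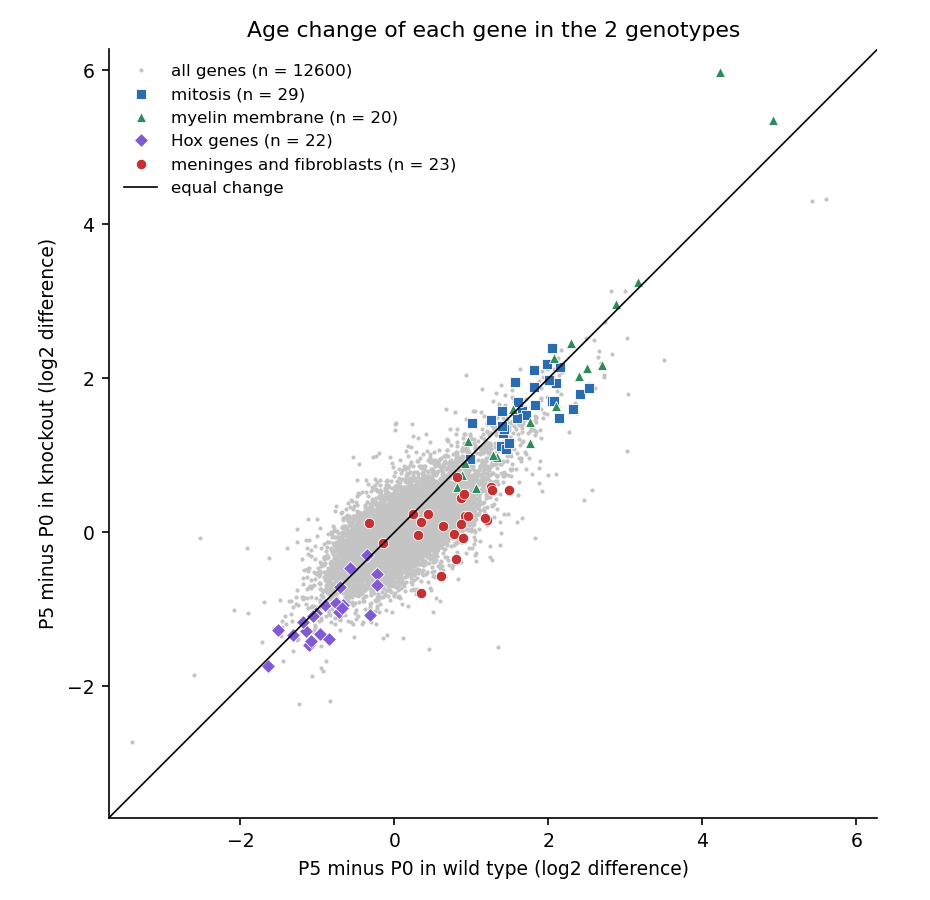
Each point is 1 of 12600 genes, with its P5 minus P0 log2 difference in wild type on the horizontal axis and in the knockout on the vertical axis, and the line marks equal change. Of the 23 meninges and fibroblast genes, 21 lie under the line, with a median of 0.82 in wild type and 0.16 in the knockout. Their median genotype by age term was -0.71. Most mitosis, myelin and Hox genes also lie under it (20 of 29, 12 of 20 and 18 of 22). Their median terms were smaller, at -0.09, -0.18 and -0.14.

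To place each sample along the P0 to P5 change, the log2 levels of the 2732 age-changed genes were averaged, with the sign turned for genes that fell, relative to the P0 wild-type mean. The age-changed genes were chosen from the average over both genotypes, a contrast that weights them equally, and the index is a description with no test. The P0 wild-type samples 1 to 3 lay at -0.11, 0.14 and -0.02, and the P0 knockout samples at 0.01, 0.20 and 0.15. At P5 the wild-type samples lay at 0.75, 0.74 and 0.76 and the knockout samples at 0.72, 0.79 and 0.78. The P5 samples of both genotypes thus shared 1 narrow range, while at P0 the knockout samples 2 and 3 lay above all wild-type samples and knockout sample 1 lay among them.

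The knockout covered a distance of 0.64 from P0 to P5 and wild type 0.75, a ratio of 85.6% and a difference of -0.11, with a pooled within-group SD of 0.08. The genotypes differed by 0.12 at P0 and by 0.01 at P5. The shorter distance was therefore a matter of where the P0 samples lay. For 1771 of the 2732 genes (64.8%) the knockout's change was the smaller one. This held for 937 of the 1374 genes that rose (68.2%), where it means a negative term. It held for 834 of the 1358 genes that fell (61.4%), where it means a positive term. Of all 12600 genes, 57.0% had a negative term, a share to be set beside that of the rising genes only. The share of the falling genes is to be set beside the 5412 of 12600 genes with a positive term. Genes that rose had a ratio of 82.6% (difference -0.16, pooled SD 0.11) and genes that fell had 90.3% (difference -0.06, pooled SD 0.07). The value moved with P0 samples of both genotypes and with the choice of genes. Without P0 wild-type sample 2 the ratio was 59.9% and the difference -0.32. Without P0 wild-type sample 1 the ratio was 92.8% and the difference -0.05, and without P0 knockout sample 2 they were 92.4% and -0.06. Over all 1457 genes that passed in wild type, whether or not they passed in the knockout, the ratio was 74.2%. Over all 835 that passed in the knockout, whether or not in wild type, it was 107% with a difference of 0.07, so the sign turned. Choosing genes in 1 genotype favours the genotype that chose them, and these values bracket that choice.

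**Figure D2:**
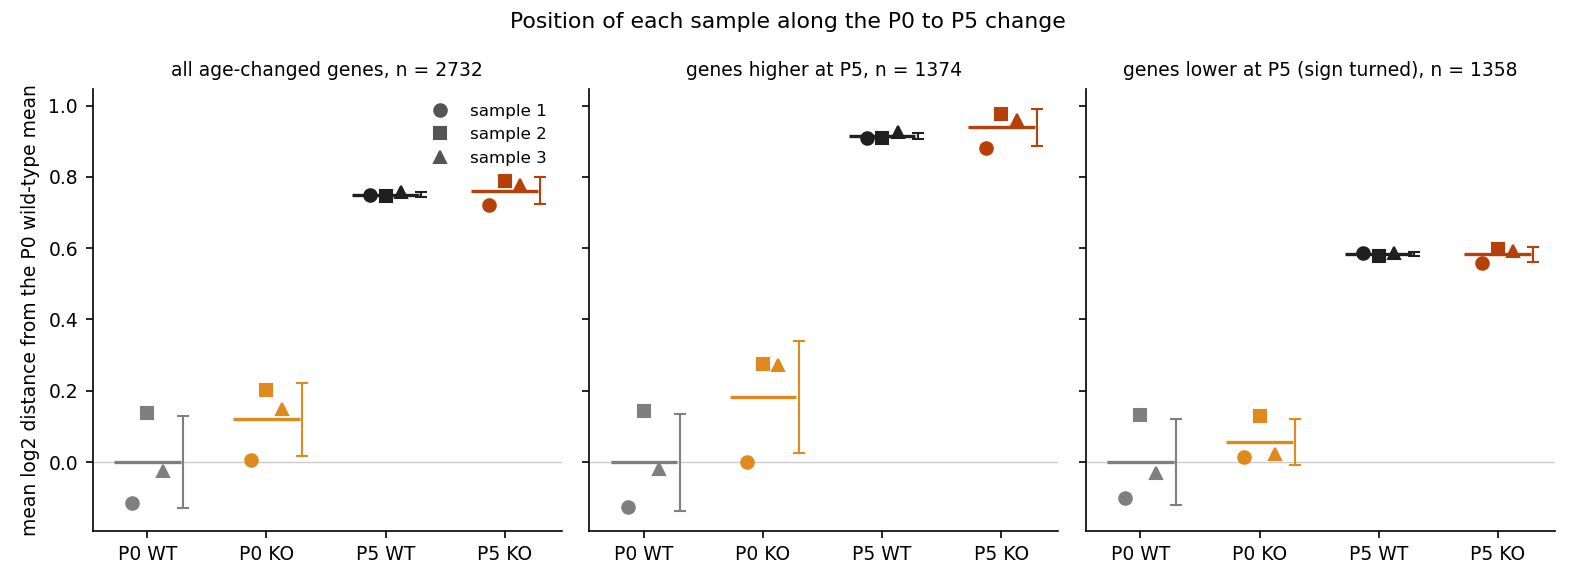
Mean log2 distance of each sample from the P0 wild-type mean over all age-changed genes, those higher at P5 and those lower at P5 with the sign turned. Symbols are samples, horizontal bars are means and vertical bars are SDs (n = 3); the 6 P5 samples lie together between 0.72 and 0.79 in the left panel, while the P0 samples spread from -0.11 to 0.20.

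Gene lists for maturation, regions, cell types and processes were then described by how many members changed with age and by their medians, beside the medians over all 12600 genes, which were 0.03 for P5 minus P0 in wild type, -0.03 in the knockout and -0.06 for the genotype by age term. Counts of members that rose or fell are those of the average age change unless a genotype is named, to be read against the 10.9% of all genes that rose and the 10.8% that fell, and counts of negative terms against 57.0% of all genes. No member of any list had a term that passed the test. The lists were chosen with earlier results of these data known, so counts set beside these shares are descriptions only.

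**Figure D3:**
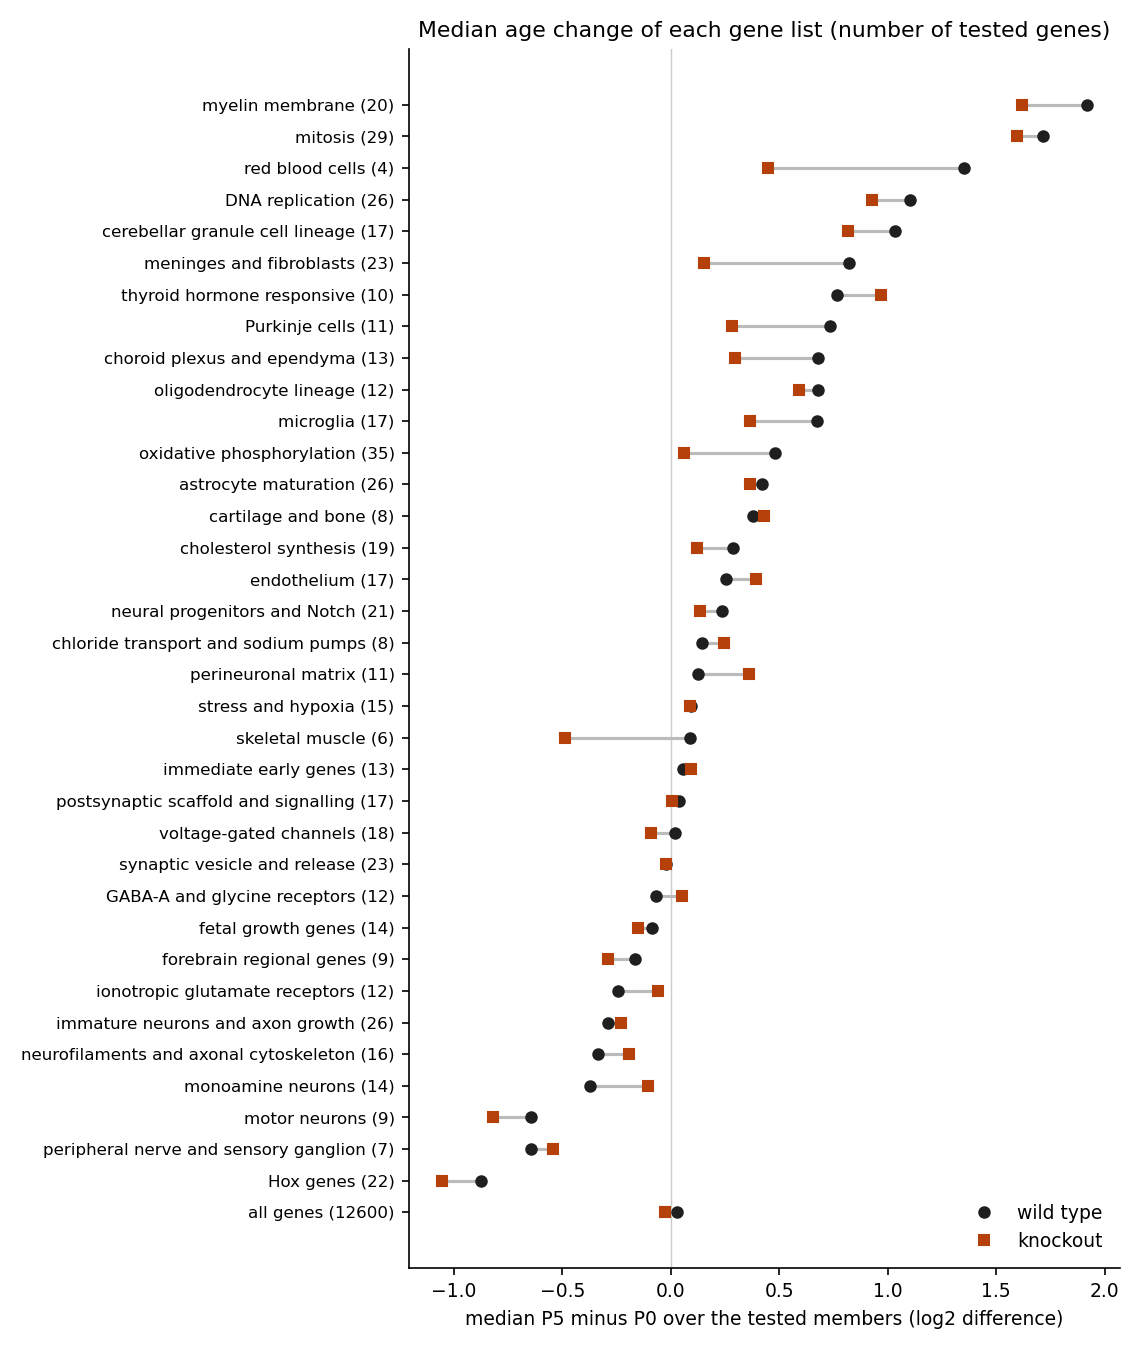
Median P5 minus P0 log2 difference over the tested members of each list in wild type (circles) and knockout (squares), with the number of tested genes in brackets and all genes in the bottom row. Myelin, mitosis and DNA replication have high medians and Hox genes and motor neurons low medians in both genotypes. The medians lie far apart for the meninges list (0.82 and 0.16), oxidative phosphorylation (0.48 and 0.06), and the 4 red blood cell genes (1.35 and 0.45). They also do for the 6 skeletal muscle genes (0.09 and -0.49), Purkinje cells (0.73 and 0.28), and choroid plexus and ependyma (0.68 and 0.30).

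Myelin genes rose steeply in both genotypes. Of 20 tested members of the myelin membrane list, 19 rose in the average age change, against 10.9% of all genes, 19 rose in wild type and 16 in the knockout. Their median P5 minus P0 was 1.92 in wild type and 1.62 in the knockout, and 12 of 20 had a negative term. Mobp, a structural protein of compact myelin, lay at 8.65, 10.32 and 9.25 in wild type at P0, 7.55, 9.50 and 9.36 in knockout at P0, 14.48, 14.17 and 14.33 in wild type at P5 and 13.89, 14.38 and 14.20 in knockout at P5. All 6 P5 samples lay far above all P0 samples, and the genotypes overlapped at both ages on this probe set. Dimmer Mobp probe sets past the filter had terms of 0.29, 1.21 and 1.74, and none passed the test. For the terms of 1.21 and 1.74 the P0 knockout samples lay below all P0 wild-type samples, and for 0.29 they overlapped. Mobp rose by 4.92 in wild type and by 5.36 in the knockout (limma adjusted p 2.4e-05 and 1.18e-05), the largest average rise of all genes. Mag, the myelin-associated glycoprotein that sits next to the axon, rose by 3.16 and 3.25, with a term of 0.09 (95% interval -0.40 to 0.58).

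Mog, a glycoprotein of the outer myelin surface that appears late in myelination, had the smallest unadjusted p in the list. It lay at 7.88, 7.49 and 6.76 in wild type at P0 and 6.99, 5.0 and 4.42 in knockout at P0, both dim, then at 11.89, 11.38 and 11.56 in wild type at P5 and 11.09, 11.55 and 11.68 in knockout at P5. Its rise was 4.23 in wild type and 5.97 in the knockout, with a term of 1.74 (95% interval 0.18 to 3.31, limma adjusted p 0.838). The direction is that of a larger change in the knockout, it came from dim P0 values, and it did not pass the test. Ugt8a, which makes the myelin lipid galactosylceramide, rose by 2.88 and 2.96.

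Other glial lists had smaller medians than myelin in both genotypes. In the oligodendrocyte lineage list, 9 of 12 members rose, with medians of 0.68 in wild type and 0.59 in the knockout. Sox10, a transcription factor of the whole lineage, rose by 1.06 in wild type and 1.03 in the knockout, and Gpr17, a receptor of cells about to myelinate, by 1.31 and 0.89. Tcf7l2, a differentiation factor of the lineage, was 1.19 and 0.92 higher at P5 but ranged from 9.28 to 11.93 among P0 samples and did not pass. Among 26 astrocyte maturation genes, 15 rose, with medians of 0.42 and 0.37. Gfap, the astrocyte intermediate filament, rose by 1.98 and 2.12 (limma adjusted p 6.28e-06 and 3.05e-06), with a term of 0.14 (95% interval -0.32 to 0.6), and S100b, a calcium-binding protein of astrocytes, rose by 1.87 and 1.66. Slc1a2, the main glutamate transporter of astrocytes, had the smallest unadjusted p of that list: it lay at 14.38, 14.11 and 14.13 in wild type at P0 and 13.75, 13.67 and 13.51 in knockout at P0, and between 14.40 and 14.76 in all P5 samples. Its term was 0.50 (95% interval 0.10 to 0.89, limma adjusted p 0.838), and it passed in the knockout (0.94) and not in wild type (0.44). Cholesterol synthesis genes, which supply lipid for myelin, had 3 of 19 members rising, against 10.9% of all genes, with medians of 0.29 and 0.12 and 14 negative terms, against 57.0% of all genes. The share of risers was thus near that of all genes. Ebp, a sterol isomerase, was the member with the largest average rise, 1.14 in wild type, where it passed, and 0.58 in the knockout, where it did not.

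Genes of dividing cells rose together in both genotypes. All 29 tested mitosis genes rose in wild type, in the knockout and in the average, with medians of 1.71 and 1.6 and 20 negative terms. Mki67, a protein of the mitotic chromosome surface used as a marker of proliferation, lay at 11.65, 11.30 and 11.65 in wild type at P0, 11.41, 11.66 and 11.37 in knockout at P0, 13.56, 13.64 and 13.86 in wild type at P5 and 13.54, 13.79 and 13.55 in knockout at P5. The genotypes overlapped at both ages and the ages did not. Mki67 rose by 2.15 in wild type and 2.15 in the knockout, and its term of -0.003 had a 95% interval of -0.43 to 0.43, which excludes a term of 2-fold in either direction. Bub1, a spindle checkpoint kinase, rose by 2.05 and 2.40, and Ube2c, which helps to degrade mitotic cyclins, by 2.52 and 1.87. The sign of these lists was the reverse of the one they were given when lists for the maturation index were set up, where dividing cells were placed among genes that fall.

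In the DNA replication list, 22 of 26 members rose on average, with medians of 1.10 in wild type and 0.93 in the knockout and 20 negative terms. Uhrf1, which binds half-methylated DNA behind the replication fork, rose by 2.65 and 2.28, and Cdc6, which loads the replicative helicase onto origins, by 1.93 and 2.01. Mcm3, a subunit of that helicase, rose by 1.91 and 1.75. Many genes of the S phase are known targets of E2F transcription factors, so promoters were searched on both strands for TTTCCCGC, TTTCGCGC, TTTGCCGC and TTTGGCGC, which all begin with TTT and end with CGC, and no other motif was searched. The windows were those of RefSeq on GRCm38.p6, 250 bases before to 50 after a start. A match was present for 10 of 21 DNA replication members with a promoter in the table (47.6%) and for 1 of 24 mitosis members (4.17%), 0 of 15 myelin members and 0 of 17 meninges and fibroblast members, against 704 of 27025 genes (2.6%) and 744 of 32851 promoters (2.26%). A match is a description of the letters and not a measured site. The 250 bases before the start of the 2 members with the largest average rise are shown from the gene's own strand, with the match in capitals; for Uhrf1 this is 1 of its starts, at chr17:56304063-56304312 on the + strand, and for Cdc6 chr11:98907901-98908150 on the + strand. They are shown because they hold a match. The 250 bases before the other start of Uhrf1, at chr17:56303087-56303336, held none, and neither did those before the starts of Mcm3, Rrm2, E2f1 and Cdt1, the next members by average rise.
Uhrf1: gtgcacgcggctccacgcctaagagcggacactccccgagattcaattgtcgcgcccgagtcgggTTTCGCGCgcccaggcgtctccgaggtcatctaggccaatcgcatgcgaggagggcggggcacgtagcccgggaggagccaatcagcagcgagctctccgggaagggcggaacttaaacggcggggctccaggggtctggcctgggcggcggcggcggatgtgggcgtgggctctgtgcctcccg
Cdc6: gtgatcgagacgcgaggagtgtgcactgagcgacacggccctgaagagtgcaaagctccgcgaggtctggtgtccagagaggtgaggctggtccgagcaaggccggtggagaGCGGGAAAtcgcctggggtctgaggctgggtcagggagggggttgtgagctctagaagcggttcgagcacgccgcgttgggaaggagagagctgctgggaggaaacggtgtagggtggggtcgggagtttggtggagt

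The match in Uhrf1 reads as TTTCGCGC on the strand shown, and that in Cdc6 is the reverse complement of TTTCCCGC. Cerebellar lists moved in the same direction as the dividing cells. In the granule cell lineage list 14 of 17 members rose, with medians of 1.03 and 0.82, and in the Purkinje cell list 5 of 11 rose and 1 fell, with medians of 0.73 and 0.28. Neurod1, a transcription factor of differentiating granule cells, rose by 3.02 in wild type and 2.52 in the knockout, and Pax6, a factor of granule cell precursors, by 2.06 and 2.02. Pcp2, a protein of Purkinje cells, rose by 5.43 and 4.31, with a term of -1.12 (95% interval -2.51 to 0.26). A second probe set of Pcp2 rose by 3.57 and 4.40, a positive term, so its probe sets disagreed in sign. The brightest probe set's P0 values were 8.06, 8.85 and 8.0 in wild type and 8.43, 10.87 and 8.77 in the knockout, so knockout sample 2 stood above the rest, and all P5 samples lay between 13.46 and 13.99. Among 21 progenitor and Notch genes, 7 rose and 2 fell, with medians of 0.24 and 0.14; Insm1, a factor of intermediate progenitors, rose by 2.82 and 3.13.

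Neuronal lists had small medians in both genotypes. Of 26 genes of immature neurons and axon growth, 12 fell and 4 rose, with medians of -0.29 in wild type and -0.23 in the knockout. Igfbpl1, Nhlh1 and Nhlh2, which mark young neurons, rose by 2.14, 1.46 and 1.13 in wild type and by 2.04, 1.45 and 1.13 in the knockout. Dcx, a microtubule protein of migrating neurons, had the smallest unadjusted p: it lay at 16.43, 15.90 and 16.39 in wild type at P0, 16.01, 15.72 and 15.01 in knockout at P0, 14.06, 14.29 and 15.48 in wild type at P5 and 15.68, 14.70 and 15.37 in knockout at P5. Its term was 1.30 (95% interval 0.25 to 2.36, limma adjusted p 0.838), and the genotypes overlapped at each age. In the neurofilament and axonal cytoskeleton list 8 of 16 fell, with medians of -0.34 and -0.19; Prph, an intermediate filament of motor and sensory axons, fell by 1.27 and 1.41 on the log2 scale and Ina, an early neurofilament, by 0.72 in wild type, with -0.40 in the knockout.

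Synaptic and channel lists had few changed members, near the 10.9% of all genes that rose and the 10.8% that fell. Synaptic vesicle genes had 2 of 23 members rising and 4 falling, with medians of -0.02 and -0.02. Postsynaptic genes had 3 of 17 rising and 1 falling, with medians of 0.04 and 0.01. Nrgn, a calmodulin-binding protein of dendritic spines, rose by 1.26 in wild type and was 1.01 higher in the knockout, where it did not pass. Pclo, a scaffold of the presynaptic active zone, fell on average by 0.64 on the log2 scale. Voltage-gated channels had 2 of 18 rising and 2 falling, close to the shares over all genes, with medians of 0.02 and -0.09; Kcna1, a potassium channel of axons, rose by 0.93 and 0.74, and Scn3a, a sodium channel of the fetal brain, fell by 0.71 and 0.67. Perineuronal matrix genes had 4 of 11 rising, with medians of 0.13 and 0.36, among them Hapln1, a link protein, by 1.05 and 1.09.

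Among the ionotropic glutamate receptors, the family of the deleted subunit, 0 of 12 members rose and 2 fell, against 10.8% of all genes falling, with medians of -0.24 in wild type and -0.06 in the knockout and 8 positive terms. Grik1, a kainate receptor subunit, lay at 12.05, 12.25 and 12.40 in wild type at P0, 11.91, 12.11 and 11.79 in knockout at P0, 11.28, 11.08 and 11.35 in wild type at P5 and 11.50, 11.42 and 11.50 in knockout at P5. It fell by 1.0 in wild type (limma adjusted p 0.000832) and was 0.46 lower at P5 in the knockout (0.0908), with a term of 0.53 (95% interval 0.11 to 0.96, adjusted p 0.838). The genotypes overlapped at P0, and at P5 all 3 knockout samples lay above the 3 wild-type samples. Grik3, another kainate subunit, fell on average by 0.68. Of the NMDA receptor subunits, Grin2d, an early postnatal subunit, was 0.30 lower at P5 in wild type and 0.80 lower in the knockout and did not pass in either. Of 12 GABA-A and glycine receptor genes, 4 fell and 1 rose, with medians of -0.07 and 0.05; Glra2, the fetal glycine receptor subunit, fell by 0.88 in wild type and 0.77 in the knockout. Chloride transport and sodium pump genes had 3 of 8 rising and 1 falling, with medians of 0.14 and 0.24, and Slc12a2, a chloride importer, rose by 0.54 and 0.57.

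Hox genes, which give hindbrain and cord their position along the body, fell in both genotypes. Of 22 members, 17 fell on average, 12 in wild type and 14 in the knockout, with medians of -0.87 and -1.06 and 18 negative terms. Hoxd10, a gene of the lumbar cord, lay at 11.89, 11.61 and 11.46 in wild type at P0, 11.93, 11.93 and 12.49 in knockout at P0, 10.13, 10.24 and 9.64 in wild type at P5 and 10.42, 10.44 and 10.26 in knockout at P5. It fell by 1.65 and 1.74, the ages did not overlap, and at both ages the knockout samples lay above the wild-type samples. The list's mean level spread at P0 from -0.42 in wild-type sample 3 and 0.40 in wild-type sample 2 to 0.45 in knockout sample 3, and at P5 only from -0.83 to -0.95 over both genotypes. The share of cord in each sample is not known, and its part in these falls was not tested. The list for motor neurons, the cells in which NR3B is best known, had 6 of 9 members falling and 0 rising, with medians of -0.65 and -0.82. Isl1, a homeodomain factor of motor neurons and other cord and sensory neurons, lay at 10.76, 10.88 and 10.81 in wild type at P0, 10.81, 11.25 and 11.42 in knockout at P0, 9.75, 9.33 and 9.65 in wild type at P5 and 9.03, 8.47 and 9.29 in knockout at P5. It fell by 1.24 in wild type and 2.23 in the knockout, with a term of -0.99 (95% interval -1.70 to -0.28, limma adjusted p 0.838). At P5 all knockout samples lay below all wild-type samples, and 12.9% of all genes had no overlap of the genotypes at P5. A second probe set of Isl1 fell by 0.865 in wild type and 1.11 in the knockout. Its term was -0.25, and its genotypes overlapped at P5. Of 9 forebrain genes, 1 fell, Bcl11b, by 0.96 and 0.74.

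Genes of the meninges, the membranes around brain and cord, and of fibroblasts mostly had negative terms, and none of these terms passed the test. The mean over the 23 members lay at -0.10, -0.04 and 0.14 in the P0 wild-type samples and at 0.53, 0.71 and 0.63 in the P0 knockout samples, and at P5 at 0.58, 0.82 and 0.76 in wild type and 0.84, 0.68 and 0.74 in the knockout. The P0 genotypes did not overlap, and the P5 genotypes did. From P0 to P5, 9 members rose in wild type, against 6.75% of all genes, and in the knockout 0 rose, against 3.94%, and 1 fell, against 2.68%. The median change was 0.82 in wild type and 0.16 in the knockout, and the median term was -0.71, with 21 of 23 negative and 10 with an unadjusted p under 0.05, against 4.49% of all genes. Knockout minus wild type had a median of 0.67 at P0 and 0.07 at P5. At P0, 10 members were higher in every knockout sample than in every wild-type sample, against 6.66% of all genes, and at P5 0 members, against 7.66%. The list was chosen with earlier results of these data known, and 6 members are among the 20 genes ranked by the term below. These counts therefore describe the list and support nothing further. Over the settings and left-out samples, the list's median term ran from -0.81 without P0 knockout sample 1 to -0.56 without P0 knockout sample 2.

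Apod, a lipid carrier of meningeal fibroblasts that is also made by oligodendrocytes, lay at 12.10, 12.41 and 12.66 in wild type at P0, 13.44, 13.59 and 13.27 in knockout at P0, 13.45, 13.67 and 13.59 in wild type at P5 and 13.68, 13.48 and 13.67 in knockout at P5. On this probe set only the P0 wild-type samples were low. It rose by 1.18 in wild type (limma adjusted p 0.000335) and was 0.18 higher at P5 in the knockout (0.637). Its term was -1.0 (95% interval -1.45 to -0.56, limma adjusted p 0.838), and at P0 it was higher in the knockout by 1.04 (0.0474). A dimmer Apod probe set past the filter did not show this rise. It was 0.11 lower at P5 in wild type and 0.37 lower in the knockout, a term of -0.26, and its genotypes overlapped at P0. Igf2, a growth factor secreted by meninges and choroid plexus, lay at 13.01, 13.46 and 13.13 in wild type at P0 and 13.92, 14.36 and 14.0 in knockout at P0, and between 14.42 and 14.78 in all P5 samples. It rose by 1.49 in wild type and was 0.55 higher in the knockout, with a term of -0.94. Its second probe set had a term of 0.08, so the probe sets of Igf2 disagreed. Ptgds, the prostaglandin D synthase of the meninges, lay at 14.57, 15.51 and 15.32 in wild type at P0, 16.03, 16.30 and 16.18 in knockout at P0 and between 16.26 and 16.42 at P5, with a term of -1.05 and -1.27 for its other probe set.

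Pdpn, a membrane glycoprotein of the arachnoid and other linings, differed from these. It lay at 11.80, 12.29 and 12.37 in wild type at P0, 12.34, 12.61 and 12.81 in knockout at P0, 12.62, 12.39 and 12.49 in wild type at P5 and 11.68, 11.78 and 11.92 in knockout at P5. The genotypes overlapped at P0, and at P5 every knockout sample lay below every wild-type sample. Pdpn fell by 0.79 in the knockout (limma adjusted p 0.0161), with a term of -1.14 (95% interval -1.64 to -0.64, adjusted p 0.838), the smallest unadjusted p of all genes. The fibrillar collagens Col1a1, Col1a2 and Col3a1, which fibroblasts make in bulk, had terms of only -0.20, -0.21 and -0.01, so members of the list did not all differ between the genotypes.

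Other cell types outside the neural lineage are given for comparison. Of 4 tested red blood cell genes, 2 rose, and their median term was -0.65; Alas2, which starts heme synthesis in red cell precursors, lay at 8.91, 9.99 and 9.42 in wild type at P0, 11.19, 10.40 and 11.26 in knockout at P0 and between 10.91 and 12.08 at P5, with a term of -1.24 (95% interval -2.19 to -0.29, limma adjusted p 0.838). The P0 genotypes of Alas2 did not overlap, as for the meninges list. Choroid plexus and ependyma genes had 2 of 13 rising, with medians of 0.68 in wild type and 0.30 in the knockout, and wide scatter among P0 samples, from -0.47 in wild-type sample 2 to 1.04 in knockout sample 3. Endothelial genes had 6 of 17 rising, with medians of 0.25 and 0.39, and Cldn5, a tight junction protein of brain vessels, rose by 0.87 and 0.43. How much meninges, blood or choroid plexus stayed on the tissue at dissection is not given, and its part in these differences was not tested.

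Microglial genes had 7 of 17 members rising and 0 falling, with medians of 0.67 in wild type and 0.36 in the knockout and 11 negative terms. Their mean lay at -0.34, 0.53 and -0.20 in wild type at P0, 0.16, 0.65 and 0.41 in knockout at P0, 0.54, 0.63 and 0.48 in wild type at P5 and 0.68, 0.88 and 0.75 in knockout at P5. Wild-type sample 2 lay among the knockout samples at P0, and at P5 the 3 knockout samples lay above the 3 wild-type samples. The median term moved from -0.18 to -0.51 without P0 wild-type sample 2 and to -0.08 without sample 1. At P5, 8 of the 17 were higher in every knockout sample than in every wild-type sample, against 7.66% of all genes, and at P0 1 was. P2ry12, a receptor of resting microglia, rose by 0.99 and 1.22, with a term of 0.23 (95% interval -0.30 to 0.75). C1qb, a complement subunit, was 0.71 and 0.15 higher at P5 and did not pass.

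Oxidative phosphorylation genes, which encode the respiratory chain of mitochondria, mostly had negative terms, and no member passed. Of 35 members, 0 changed with age in either genotype or the average, 31 had a negative term and 1 an unadjusted p under 0.05. Their median P5 minus P0 was 0.48 in wild type and 0.06 in the knockout, with a median term of -0.41. The list's mean lay at -0.32, 0.48 and -0.15 in wild type at P0, 0.04, 0.50 and 0.49 in knockout at P0, 0.46, 0.44 and 0.36 in wild type at P5 and 0.38, 0.36 and 0.48 in knockout at P5. Here the P0 samples did not divide by genotype: wild-type sample 2 and knockout samples 2 and 3 were at the P5 level, and wild-type samples 1 and 3 and knockout sample 1 were lower. At P0, 0 members were higher in every knockout sample than in every wild-type sample, against 6.66% of all genes. At P5, 2 members were, against 7.66%. The median term was -0.67 without P0 wild-type sample 2 and -0.22 without sample 1. Ndufc1, a subunit of complex I, followed the list, at 13.83, 14.99 and 13.97 in wild type at P0 and 14.06, 15.20 and 15.43 in knockout at P0. The same 3 P0 samples were highest in the index of age-changed genes, and the part of RNA quality in this was not tested: the ratio of 3′ to 5′ actin signal was 1.24 to 1.28 in wild-type samples 1 and 2 and knockout samples 1 and 2, 1.48 in wild-type sample 3 and 1.58 in knockout sample 3.

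**Figure D4:**
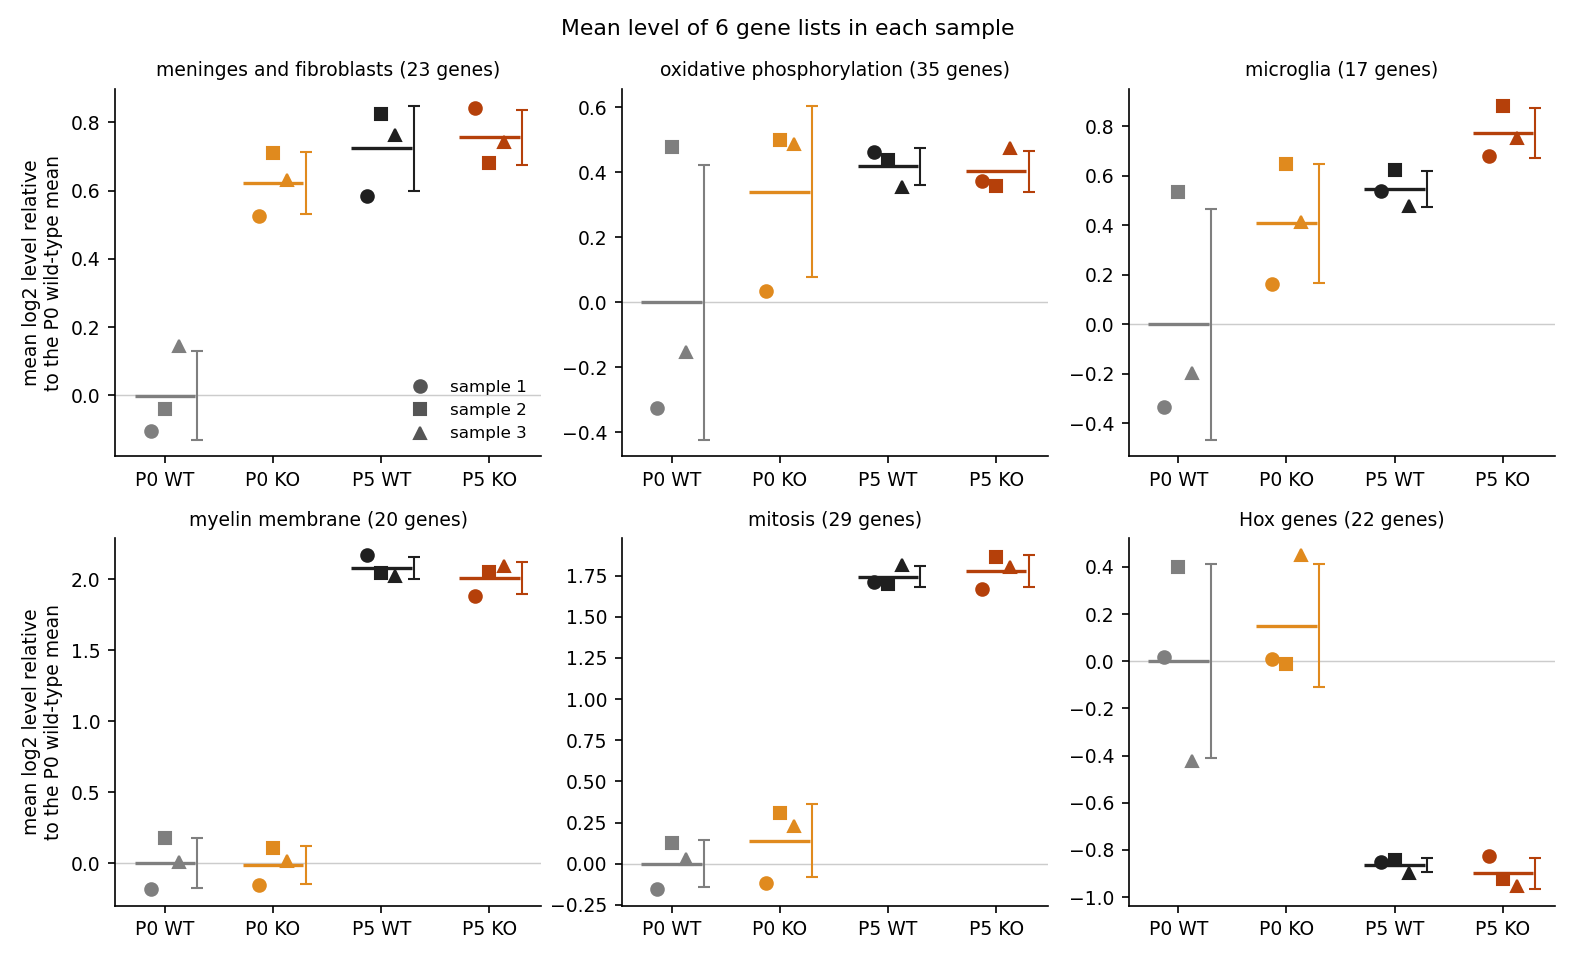
Mean log2 level of 6 lists in each sample relative to the P0 wild-type mean, with symbols for samples, horizontal bars for means and vertical bars for SDs (n = 3). For meninges and fibroblasts all P0 knockout samples (0.53 to 0.71) lie above all P0 wild-type samples (-0.10 to 0.14); for oxidative phosphorylation and microglia the P0 genotypes overlap, and for myelin, mitosis and Hox genes the ages stand apart in both genotypes.

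The remaining lists are given with their medians in wild type and knockout, with counts to be read against the 10.9% of all genes that rose and the 10.8% that fell. Monoamine neuron genes had 2 of 14 rising and 4 falling, with medians of -0.37 and -0.10; Slc6a3, the dopamine transporter, rose by 1.88 in wild type and was 0.83 higher in the knockout. Fetal growth genes had 2 of 14 rising and 3 falling (medians -0.09 and -0.15), and Dlk1, an imprinted Notch-like protein, fell by 0.95 in wild type and 1.12 in the knockout. Thyroid hormone responsive genes had 6 of 10 rising (0.76 and 0.97), with Dio2, which activates the hormone, rising by 1.22 and 1.13. Stress and hypoxia genes had 1 of 15 rising and 1 falling (0.09 and 0.09), and immediate early genes 2 of 13 rising (0.06 and 0.10). Skeletal muscle genes had 1 of 6 falling (0.09 and -0.49), peripheral nerve and sensory ganglion genes 1 of 7 rising and 1 falling (-0.65 and -0.54), and cartilage and bone genes 4 of 8 rising and 1 falling (0.38 and 0.43). None of the 4 sex-linked genes passed.

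Ranked by unadjusted p, the 10 genes with a positive and the 10 with a negative term were described in turn; all 20 had a limma adjusted p of 0.838 in the fit over all probe sets and so did not pass. The positive terms belonged to Adgrl3 (0.77), Gpd2 (0.66), B3galt2 (0.87), Mybpc1 (1.24), Dach1 (0.74), Pcdhb19 (1.06), Sspo (1.29), Ints3 (0.62), Ptchd1 (0.90) and Brinp2 (0.72). The negative terms belonged to Pdpn, Apod, Igf2, Ptgds, Igfbp2 (-0.71) and Slc6a13 (-1.16), 6 genes of the meninges list, and to Tgds (-0.98), Itga3 (-0.80), Marveld1 (-0.71) and Tigar (-1.01). The genotypes did not overlap at P0 for 8 of the positive and 9 of the negative genes, against 10.2% of all genes, and at P5 for 5 and 4, against 12.9%. Since the same P0 samples choose the genes, these counts describe where their terms came from and support nothing further.

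Adgrl3, an adhesion receptor of synapses, lay at 13.61, 13.21 and 13.51 in wild type at P0, 12.90, 12.83 and 12.65 in knockout at P0, 12.70, 12.75 and 12.63 in wild type at P5 and 12.96, 12.66 and 12.84 in knockout at P5. The P0 wild-type samples stood above all others. Adgrl3 fell by 0.75 in wild type (limma adjusted p 0.00431) and was 0.02 higher at P5 in the knockout (0.964), and all 5 of its other probe sets had a positive term. The next brightest probe set fell by 0.58 in wild type and was 0.43 lower at P5 in the knockout, a term of only 0.145. Gpd2, a mitochondrial glycerol phosphate dehydrogenase, lay at 13.19, 12.88 and 13.12 in wild type at P0 and 12.39, 12.50 and 12.27 in knockout at P0, and between 12.69 and 12.99 at P5. Of its 3 other probe sets, 2 had a positive term. Sspo, which makes the Reissner fibre of the spinal canal, fell by 1.12 in wild type and was 0.18 higher in the knockout. The other probe set of Ints3 had a term of -0.08, and both others of Itga3, under the filter, had a term of the opposite sign, so for these genes the ranked probe set stood alone. For each of B3galt2, Dach1 and Marveld1, only 1 of the 2 other probe sets past the filter had a term of the same sign.

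**Figure D5:**
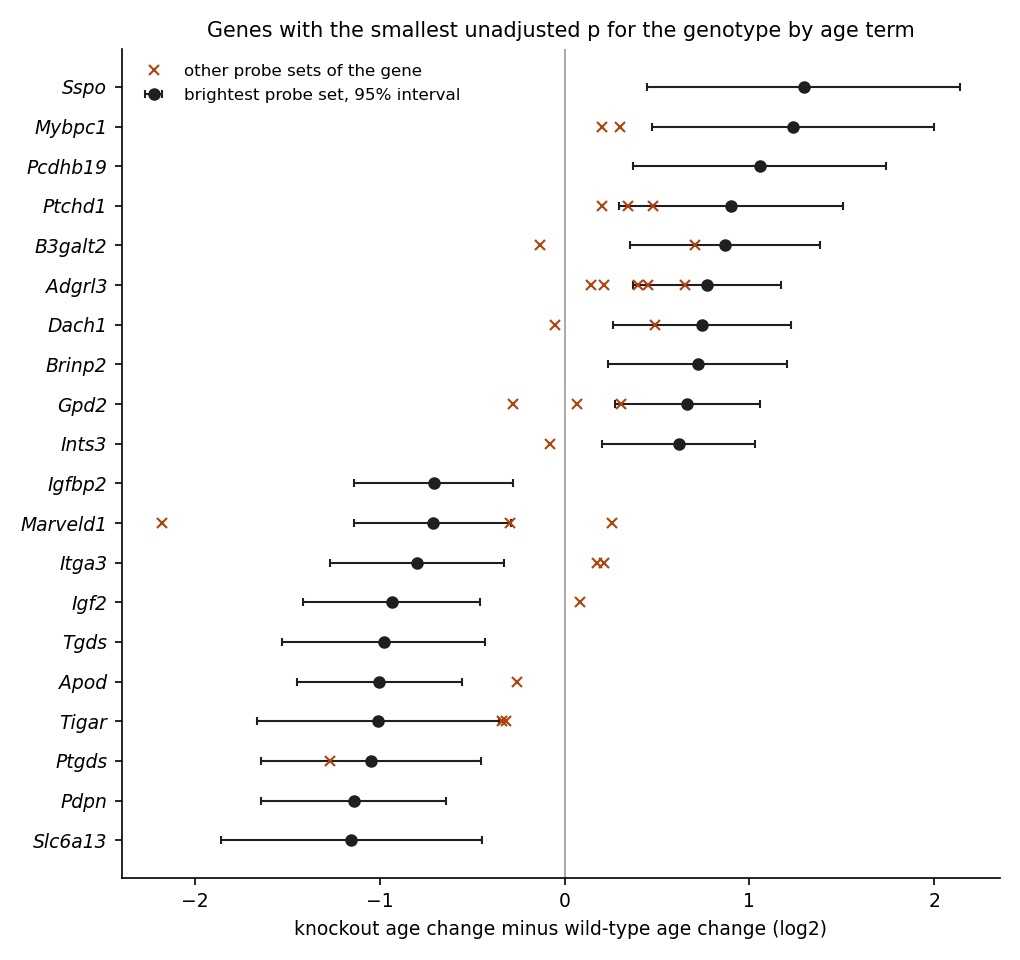
Genotype by age term (knockout age change minus wild-type age change, log2) of the 20 genes with the smallest unadjusted p, with the 95% interval of the brightest probe set and crosses for the other probe sets of the gene. The intervals leave out 0 because the genes were ranked by p, all 20 adjusted p-values are 0.838, and crosses on the other side of 0 mark genes such as Igf2 and Itga3 whose probe sets disagree.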

How the data were processed

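Total RNA of 12 samples was hybridised to 1-colour Affymetrix arrays. The authors deposited linear probe set intensity, every array scaled to a trimmed mean of 2500.01 (software: not given in the sources used here). Of the probe sets, 64 controls were left out and 45037 kept. The platform annotation gave 34945 a single symbol and 932 several.

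Signals were taken as log2(signal + 16) and quantile-normalized, since median log2 signals spread over 0.273. limma 3.58.1 in R 4.3.3 fitted 4 group means (8 residual degrees of freedom, intensity-dependent prior), with Benjamini-Hochberg adjustment over all 45037 probe sets and a threshold of 0.05. Genes are their brightest probe set with a mean at or above the 40th percentile (log2 8.72), 12600 of 18193. The fit was run on simulated data with the same spread in all groups, while the real samples spread more at P0. Its outcome is not used here. Same-numbered samples correlated between -0.0192 and 0.134, so numbers were not used as pairs.

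Named genes are Grin3b, the 10 smallest p-values for the genotype by age term in each direction, the largest average age changes, and per list up to 3 members with the largest average age change and the one with the smallest p for the term; others (Xist, Eif2s3y, the collagens, and markers named as under or past the filter) were chosen after their values were seen. The samples, the 36 lists (705 entries, 564 tested, 75 under the filter, 66 without a probe set of that single symbol) and the tests were chosen with earlier results of these data known.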

Additional observations from a re-analysis of the deposited data

How the results depend on the processing

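Having 3 arrays in a group limits the precision, most of all at P0, and each result was recomputed under 22 planned settings and 2 added after seeing the data. With the replicate number as a block, although the numbers do not pair the samples, the genotype by age term had 0 called probe sets (2531 with an unadjusted p under 0.05), the age change 3016 in wild type, 1572 in the knockout and 5554 on average, and the distance difference was -0.123; not every sample correlated best with its own number. The count for the term was 2 with a prior without an intensity trend, 1 without P0 wild-type samples 1 and 2, 1527 with 1 probe set per gene and array weights, 210 with 1 probe set per gene and no P0 wild-type sample 2, and 0 with each sample left out; without P0 wild-type sample 2 it was 0 with 6435 unadjusted. Without the trend the age change gave 1161 in wild type, 829 in the knockout and 3503 on average. Wild type gave 6882 with array weights, 6005 with these and 1 probe set per gene, and 4830 with 1 probe set per gene and no P0 wild-type sample 2; the knockout gave 2380 without P0 wild-type samples 1 and 2. Leaving out each sample gave 1093 to 6991 in wild type, 696 to 2260 in the knockout and 3666 to 8298 on average. The distance difference was -0.216 with array weights, -0.304 without P0 wild-type samples 1 and 2, and -0.246 and -0.299 in the added settings. It was -0.25 over all 1457 genes called in wild type and 0.065 over all 835 called in the knockout. With each sample left out it ran from -0.319 to -0.053. An index over 230 genes of lists with preset signs gave a difference of 0.03 (0.011 to 0.04 with each sample left out). Its distances were negative, at -0.132 in wild type and -0.102 in the knockout, so the knockout's was the shorter (ratio 77.2%). The difference was -0.026 over rising lists (ratio 94.4%). Over falling lists it was 0.088, with distances of -0.75 and -0.662 (ratio 88.2%). Mitosis and replication lists were preset as falling and rose, and their part in the turned sign was not tested. Named genes' terms kept their direction and their side of the threshold in 471 values and passed in 28, all in the 2 added settings; average age changes did so in 382 and lost the call in 2. The cause of these differences was not tested.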

Other observations

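Some genes with large average age changes belong to none of the described lists, and none of their genotype by age terms passed the test. Mfap4, a microfibril protein of the extracellular matrix, rose by 5.60 in wild type and 4.33 in the knockout, a term of -1.27; it lay at 5.62, 5.80 and 7.75 in P0 wild type and 8.39, 8.80 and 6.64 in P0 knockout, both dim, and between 11.66 and 12.75 at P5. Mndal, an interferon-inducible gene, rose by 3.0 and 3.13. Gbx2, a factor of the midbrain-hindbrain border, fell by 1.44 and 1.67 on the log2 scale, and Exosc9, a subunit of the RNA exosome, by 1.31 and 1.54. Pisd-ps3, a pseudogene whose probe set may also read related transcripts, fell by 1.72 and 1.43. Zfp991 fell by 1.87 in the knockout and was 1.07 lower at P5 in wild type, a term of -0.80. Another probe set of Zfp991 was 0.34 lower in wild type and 0.59 higher in the knockout, so its probe sets disagreed. Pex5l fell by 1.90 in wild type and was 1.04 lower in the knockout, a term of 0.86. Other Pex5l probe sets past the filter were 0.71 and 0.55 lower in wild type. In the knockout they were 0.08 lower and 0.46 higher, so its knockout change also differed between probe sets. Cldn34c1 had the largest average fall, -3.07, yet its P5 values lay at 6.30, 7.88 and 11.001 in wild type and at 6.29, 10.10 and 10.51 in the knockout while all P0 values lay between 11.50 and 11.96, so every P5 sample lay below every P0 sample and the size of the fall varied from sample to sample.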
